A study of Mus musculus with 8 samples.

Results

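The genes of nucleotide excision repair were read in mouse embryonic stem cells in which Ddb1, Psmd14 or Sox2 had been targeted with small interfering RNAs (siRNAs). The 10 genes were Ddb2, Xpc, Xpa, Ercc1, Ercc2, Ercc3, Ercc4, Ercc5, Ercc6 and Ercc8. They were chosen by name because DDB1 takes part in recognising DNA damage, and every probe set (a group of array probes read as 1 value) annotated with exactly 1 of these symbols was taken. This gave 24 of the 45037 probe sets that are not controls, with 1 to 4 probe sets per gene. Where 1 value per gene is given, it is that of the brightest of its probe sets by mean log2 value, called the representative.

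The cells were embryonic stem cells of the line NG4, reverse transfected with siRNA and collected 48 h later. The groups were siDdb1, siPsmd14, siSox2 and the non-targeting control siNonTarget, each with 2 Affymetrix arrays, and no other genotype or drug is given in the labels. All groups thus share the line, the transfection and the time. The labels do not say that replicates were separate cultures, so the p-values reflect array-to-array spread that may be only technical. Psmd14 encodes a deubiquitinase of the proteasome, and Sox2 a transcription factor of pluripotency. Fewer cells of a type and less RNA per cell cannot be told apart in such bulk samples.

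Nucleotide excision repair removes bulky lesions, such as those left by ultraviolet light, by cutting out a short stretch of the damaged strand. In the global branch, XPC finds the distorted helix, helped at ultraviolet lesions by DDB2, which binds DDB1 and so brings a CUL4 ubiquitin ligase to the site. In the transcription-coupled branch, CSB (Ercc6) senses a stalled RNA polymerase and recruits CSA (Ercc8), which is itself a substrate receptor of the CUL4-DDB1 ligase. Both branches then use the TFIIH helicases XPB (Ercc3) and XPD (Ercc2), the verification factor XPA, and the endonucleases ERCC1-XPF (Ercc1, Ercc4) and XPG (Ercc5).

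All 7 embryonic stem cell markers listed (Pou5f1, Nanog, Zfp42, Esrrb, Dppa5a, Tdgf1 and Sall4) lay above the median of every array. Their summed intensity was 46892.7 to 48148.1 in siDdb1, 43675.5 to 45057.7 in siPsmd14 and 43268.1 to 46143.7 in siSox2, against 49672.8 to 53462.9 in siNonTarget. All 7 had log2 fold changes below 0 in each knockdown (medians -0.17, -0.33 and -0.34), and limma called 1 of them, Esrrb, in siSox2. Ddb1 read 9.67 and 10.73 on the log2 scale in siDdb1, against 11.88 and 11.81 in siNonTarget, a difference of -1.65 (SE 0.28, adjusted p = 0.147) that did not pass the threshold. Psmd14 (-0.21 in siPsmd14) and Sox2 (-0.38 in siSox2) differed less from siNonTarget, and neither passed, so each knockdown is named by its label. The summed intensity of the 9 feeder fibroblast markers was 1487.3 to 1818.9 in siDdb1, 2075.9 to 3215.9 in siPsmd14 and 2333.2 to 3647.8 in siSox2, against 886.6 to 979.2 in siNonTarget, and 2 of the 9 lay above every array's median. Few of the 9 carried these sums: the list's median log2 fold change was 0.03 in siDdb1 (5 above 0, 4 below), 0.07 in siPsmd14 and 0.17 in siSox2. S100a4 and Tagln rose in siPsmd14, and in siSox2 Tagln and Pdgfrb rose while Thy1 fell. The part of either marker list in the results below was not tested.

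Few excision repair readings passed the test across all probe sets. Against siNonTarget, limma called 0 of the 24 member probe sets in siDdb1 (adjusted p under 0.05), where 0.0266% of all probe sets were called. In siPsmd14 1 of 24 passed, against 1.35% of all, and it was a probe set of Ercc8 that was lower, as were 0.24% of all. In siSox2 0 of 24 passed, against 2.93% of all. At an unadjusted limma p of 0.05 the member counts were 4 in siDdb1, 5 in siPsmd14 and 3 in siSox2, and the shares over all probe sets were 8.04%, 14.5% and 15%. All 4 of those in siDdb1 were lower (3.72% of all probe sets were lower at that p), with 4 of 5 in siPsmd14 (7.68%) and 3 of 3 in siSox2 (7.49%). The probe sets of a gene are not independent of each other, and the comparisons share the control arrays. A moderated F test over the 4 groups called 1 of 24, namely Xpc, which is 4.17% against 3.96% of all probe sets, a share near that background.

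**Figure D1:**
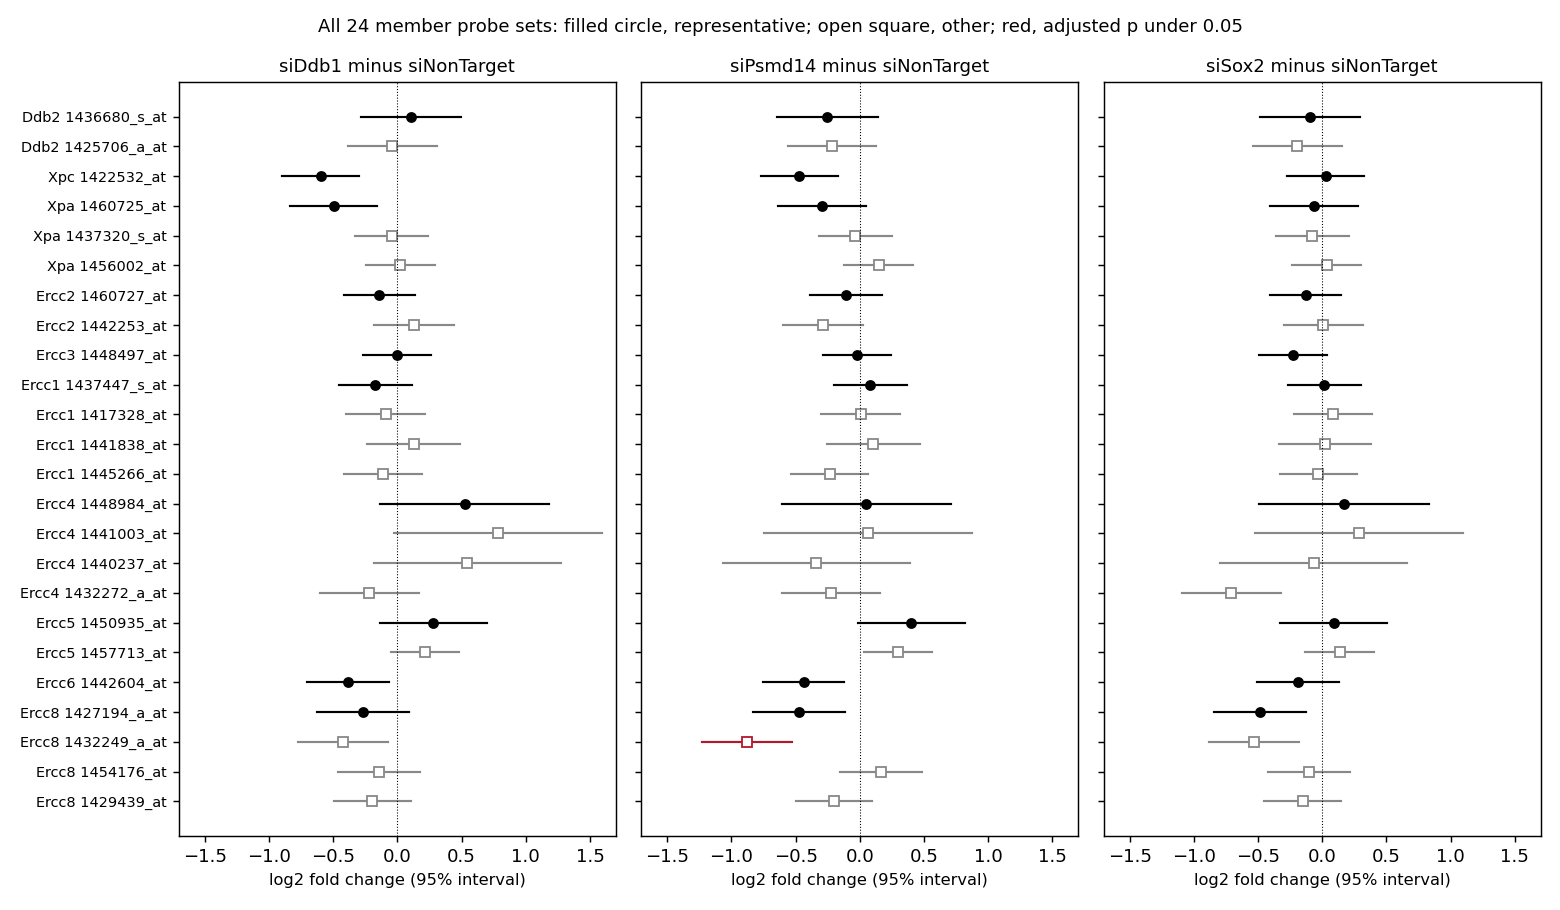
Log2 fold change (x axis) of the 24 member probe sets (rows) against siNonTarget in siDdb1, siPsmd14 and siSox2, with 95% intervals from limma; filled circles are representative probe sets, open squares the others, and red marks an adjusted p under 0.05. The red value, -0.88, is an Ercc8 probe set in siPsmd14, and Xpc lies at -0.60 and -0.47 in siDdb1 and siPsmd14 but at 0.03 in siSox2.

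Of the damage sensors, Xpc had lower signal in siDdb1 and siPsmd14 while Ddb2 overlapped the control in siDdb1 and lay slightly below it on both siPsmd14 arrays. Xpc, which encodes the sensor of the global branch, read 6.68 and 6.78 in siDdb1, 6.80 and 6.91 in siPsmd14, and 7.29 and 7.42 in siSox2, against 7.43 and 7.22 in siNonTarget. Both siDdb1 arrays lay below both siPsmd14 arrays, which in turn lay below all arrays of siSox2 and siNonTarget, and those last groups overlapped. The signal was 66.1% of the control level in siDdb1 (log2 fold change -0.60, SE 0.13, adjusted p = 0.248) and 72.1% in siPsmd14 (-0.47, adjusted p = 0.138). Neither passed the threshold.

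Compared directly, Xpc was lower in siDdb1 than in siSox2 by limma (-0.63, SE 0.13, adjusted p = 0.0406, 64.8% of the siSox2 level), where 3.08% of all probe sets passed, 1.71% as lower, and Xpc was the 1 member that did. The difference of siPsmd14 from siSox2 was -0.50 (adjusted p = 0.0919), and siPsmd14 differed from siDdb1 by 0.13 with an interval of -0.17 to 0.43. Of 7 trophoblast markers, 5 lay above every array's median. Their list's summed intensity was 1051.5 to 1116 in siDdb1 and 1056.8 to 1130.2 in siNonTarget, against 4644.6 to 5932.4 in siSox2. The part of these markers in the difference of Xpc between siDdb1 and siSox2 was not tested. The F test gave Xpc an adjusted p of 0.0476. The siDdb1 call was lost without either siDdb1 array, either siSox2 array or either siNonTarget array, with adjusted p between 0.0604 and 0.279 and log2 fold changes of -0.69 to -0.56. The F call was lost without any single one of the 8 arrays.

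Ddb2 encodes the DDB1 partner that binds ultraviolet lesions. Its representative probe set read 7.43 and 7.28 in siDdb1, 7.16 and 6.83 in siPsmd14, and 7.35 and 6.95 in siSox2, against 7.30 and 7.19 in siNonTarget. All neighbouring groups overlapped in the order siPsmd14, siSox2, siNonTarget, siDdb1. The difference in siDdb1 was 0.11 with an unadjusted 95% interval of -0.28 to 0.50 (adjusted p = 0.936). That interval is not a limit of detection. In siDdb1, 0 of 45037 probe sets were called lower, so changes larger than the interval could also fail to pass. The difference in siPsmd14 was -0.25 (adjusted p = 0.574). The second Ddb2 probe set followed the first over the 8 arrays (Pearson r = 0.92, a description, since both were read on the same arrays) and gave -0.04 in siDdb1, -0.22 in siPsmd14 and -0.19 in siSox2.

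Human DDB2 and XPC are known p53 targets, so p53-responsive genes were read beside them. Mdm2, which encodes the ligase that degrades p53, read 11.26 and 10.92 in siDdb1, 11.81 and 11.62 in siPsmd14, and 10.61 and 10.57 in siSox2, against 10.12 and 10.05 in siNonTarget. Mdm2 rose in siPsmd14 (1.63, adjusted p = 0.00319), and so did the CDK inhibitor gene Cdkn1a (1.32, adjusted p = 0.0423), which also rose in siSox2 (1.24, adjusted p = 0.0322). Of 7 measured p53-pathway genes, limma called 0 in siDdb1, and those that rose numbered 2 in siPsmd14 and 1 in siSox2. Of all genes, 0.044%, 1.7% and 2.81% rose in siDdb1, siPsmd14 and siSox2. None of the 7 fell. At an unadjusted limma p of 0.05, 6, 5 and 4 were higher in these knockdowns, against 5.85%, 9.05% and 10.2% of all genes. The medians of the 7 genes were 0.89, 0.77 and 0.50 in siDdb1, siPsmd14 and siSox2, against -0.01, -0.01 and -0.03 over all 18193 genes. Beside them, Ddb2 differed by 0.11, -0.25 and -0.10 and Xpc by -0.60, -0.47 and 0.03 in siDdb1, siPsmd14 and siSox2. The human targets are not assumed to hold for mouse Ddb2 and Xpc, and any relation between these values was not tested.

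The genes whose pattern was most like that of Xpc over the 8 arrays were Unc119b (Pearson r = 0.971), Zbtb3 (0.967) and Wdr13 (0.963). Wdr13 read 6.63 and 6.52 in siDdb1, 6.53 and 6.61 in siPsmd14, and 7.28 and 7.37 in siSox2, against 7.29 and 7.16 in siNonTarget. For Ddb2 the closest were Tmem184c (0.975), Tinf2 (0.948) and Dcun1d3 (0.947). These were the highest among 11605 genes compared, of which 46 reached an r above 0.9 with Xpc and 17 with Ddb2, and all points share the same 8 arrays.

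**Figure D2:**
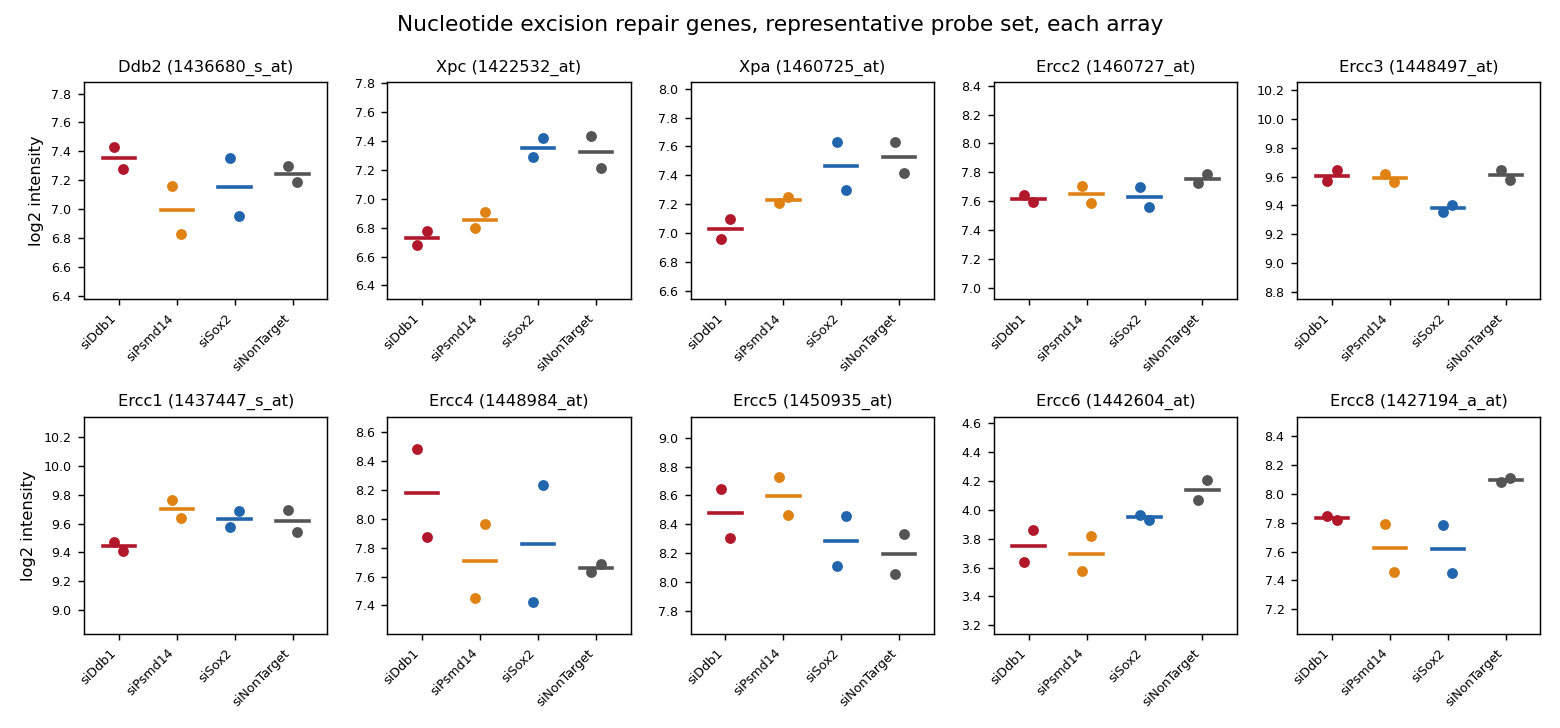
Log2 intensity (y axis, each panel spanning the same width) of the representative probe set of each of the 10 genes on every array; points are arrays and bars the means of 2 arrays in siDdb1, siPsmd14, siSox2 and siNonTarget. Xpc separates siDdb1 and siPsmd14 (6.68 to 6.91) from siSox2 and siNonTarget (7.22 to 7.43), the representative Ercc8 probe set is highest in siNonTarget, and Ercc4 is widely spread within siDdb1 and siSox2.

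Xpa, which checks the lesion once the helix is opened, read 6.96 and 7.10 in siDdb1, 7.21 and 7.25 in siPsmd14, and 7.63 and 7.29 in siSox2, against 7.63 and 7.42 in siNonTarget. Both siDdb1 arrays lay below the other 6, and siPsmd14 lay next, below siSox2 and siNonTarget, which overlapped. The log2 fold change was -0.50 in siDdb1 (SE 0.15, 70.9% of the control level, adjusted p = 0.406) and -0.29 in siPsmd14 (adjusted p = 0.425), and neither passed. The other Xpa probe sets lay at 2.80 to 3.40, below the median of every array, and differed by -0.08 to 0.15.

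The TFIIH helicase genes differed little. Ercc3, the gene of XPB, read 9.57 and 9.64 in siDdb1, 9.62 and 9.56 in siPsmd14, and 9.36 and 9.40 in siSox2, against 9.65 and 9.58 in siNonTarget. The siSox2 arrays were the lowest and did not overlap the others (-0.23, SE 0.12, adjusted p = 0.417), while in siDdb1 the difference was -0.01 with an interval of -0.27 to 0.26. Ercc2, the gene of XPD, read 7.64 and 7.59 in siDdb1, 7.71 and 7.59 in siPsmd14, and 7.70 and 7.56 in siSox2, against 7.73 and 7.79 in siNonTarget. Every knockdown array of Ercc2 lay below both control arrays, with differences of -0.14, -0.11 and -0.13 that did not pass. A second Ercc2 probe set differed from siNonTarget by 0.13 in siDdb1 and -0.29 in siPsmd14, with a difference of -0.42 between siPsmd14 and siDdb1 (adjusted p = 0.283).

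The endonuclease genes did not move as a set. Ercc1, whose product anchors XPF to the DNA, read 9.48 and 9.41 in siDdb1, 9.76 and 9.64 in siPsmd14, and 9.57 and 9.69 in siSox2, against 9.69 and 9.54 in siNonTarget. On this representative probe set the siDdb1 arrays were the lowest (-0.17, SE 0.13, adjusted p = 0.814), and the other groups overlapped. The second bright Ercc1 probe set read 9.02 and 9.03 in siDdb1, 9.20 and 9.05 in siPsmd14, and 9.25 and 9.15 in siSox2, against 9.24 and 8.99 in siNonTarget, and siDdb1 overlapped the control (-0.09). The other Ercc1 probe sets differed from siNonTarget by 0.13 and -0.11 in siDdb1, 0.11 and -0.23 in siPsmd14, and 0.02 and -0.03 in siSox2, and none passed. The Ercc1 gene span overlaps Cd3eap in the RefSeq table, and those of Ddb2, Xpc and Ercc2 also overlap other genes, so signal of an overlapping gene was not separable where probes lie there.

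Ercc4, which encodes XPF, the cutting subunit 5' of the lesion, had the widest gaps between replicates among the members. Its representative probe set read 8.49 and 7.87 in siDdb1, 7.45 and 7.97 in siPsmd14, and 7.42 and 8.23 in siSox2, against 7.63 and 7.68 in siNonTarget. Both siDdb1 arrays lay above both control arrays, but neighbouring groups overlapped throughout the order, and the siSox2 arrays were 0.81 apart. The difference in siDdb1 was 0.52 with an interval of -0.14 to 1.18 (adjusted p = 0.718). SiDdb1 replicate 1, on which Ddb1 was lower (9.67) than on replicate 2 (10.73), gave the highest Ercc4 value in 3 of the 4 probe sets. These 3 tracked each other over the arrays (r = 0.924 and 0.875 with the representative). Any relation of Ercc4 to the Ddb1 reading was not tested, and the siPsmd14 and siSox2 replicates also lay apart.

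The remaining Ercc4 probe set, the dimmest, ran differently (r = -0.324). It read 4.95 and 5.33 in siDdb1, 5.03 and 5.22 in siPsmd14, and 4.81 and 4.48 in siSox2, against 5.35 and 5.36 in siNonTarget. The siSox2 arrays were the lowest, with a difference of -0.71 (SE 0.17, adjusted p = 0.0657) that did not pass in the main fit and passed with array weights (adjusted p = 0.0472). Probe sets of the gene thus disagree in direction, and no single Ercc4 change is given here.

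Ercc5, the gene of XPG, which cuts 3' of the lesion, read 8.64 and 8.31 in siDdb1, 8.73 and 8.47 in siPsmd14, and 8.11 and 8.46 in siSox2, against 8.06 and 8.34 in siNonTarget. The siPsmd14 arrays lay above both control arrays (0.40, SE 0.18, adjusted p = 0.363), and siDdb1 overlapped the control (0.28, adjusted p = 0.780). A second, dim Ercc5 probe set at 3.07 to 3.42 had the same order of groups with no overlap between neighbours, siNonTarget being lowest and siPsmd14 highest (0.30, adjusted p = 0.283).

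The transcription-coupled genes Ercc8 and Ercc6 were below the control in all 3 knockdowns by their representative probe sets. Ercc8, which encodes CSA, is read by 4 probe sets, of which 2 lie above the array medians. The dimmer of these read 7.48 and 7.65 in siDdb1, 7.09 and 7.11 in siPsmd14, and 7.62 and 7.28 in siSox2, against 7.87 and 8.10 in siNonTarget. Every knockdown array lay below both control arrays, and siPsmd14 lay below all the others.

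By this probe set Ercc8 fell in siPsmd14 to 54.3% of the control level (log2 fold change -0.88, SE 0.15, limma adjusted p = 0.0349). It did not pass in siSox2 (-0.53, adjusted p = 0.124) or siDdb1 (-0.42, adjusted p = 0.511), and the difference between siPsmd14 and siDdb1 was -0.46 (adjusted p = 0.296). The call in siPsmd14 was lost without either siPsmd14 array (adjusted p = 0.185 without replicate 1 and 0.0565 without replicate 2) and without either siNonTarget array (0.136 and 0.249). The log2 difference between Actb 3' and 5' probe sets was 0.346 and 0.197 in siPsmd14, against 0.174 and 0.158 in siNonTarget, so both siPsmd14 arrays lay above both control arrays. An 18S ribosomal RNA probe set read 10.68 and 13.09 in siPsmd14, against 11.04 and 11.39 in siNonTarget. The part of either measure in the Ercc8 difference was not tested.

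The representative Ercc8 probe set read 7.85 and 7.82 in siDdb1, 7.79 and 7.46 in siPsmd14, and 7.78 and 7.45 in siSox2, against 8.08 and 8.11 in siNonTarget. It too had every knockdown array below both controls, with log2 fold changes of -0.26, -0.47 and -0.48 that did not pass (adjusted p = 0.746, 0.207 and 0.176). The embryonic stem cell markers were likewise below the control in all 3 knockdowns, as given above, and their part was not tested. Over the 8 arrays it correlated with the called probe set at r = 0.825. The 2 dim Ercc8 probe sets, at 3.08 to 3.94, differed from siNonTarget by -0.20 to 0.16.

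**Figure D3:**
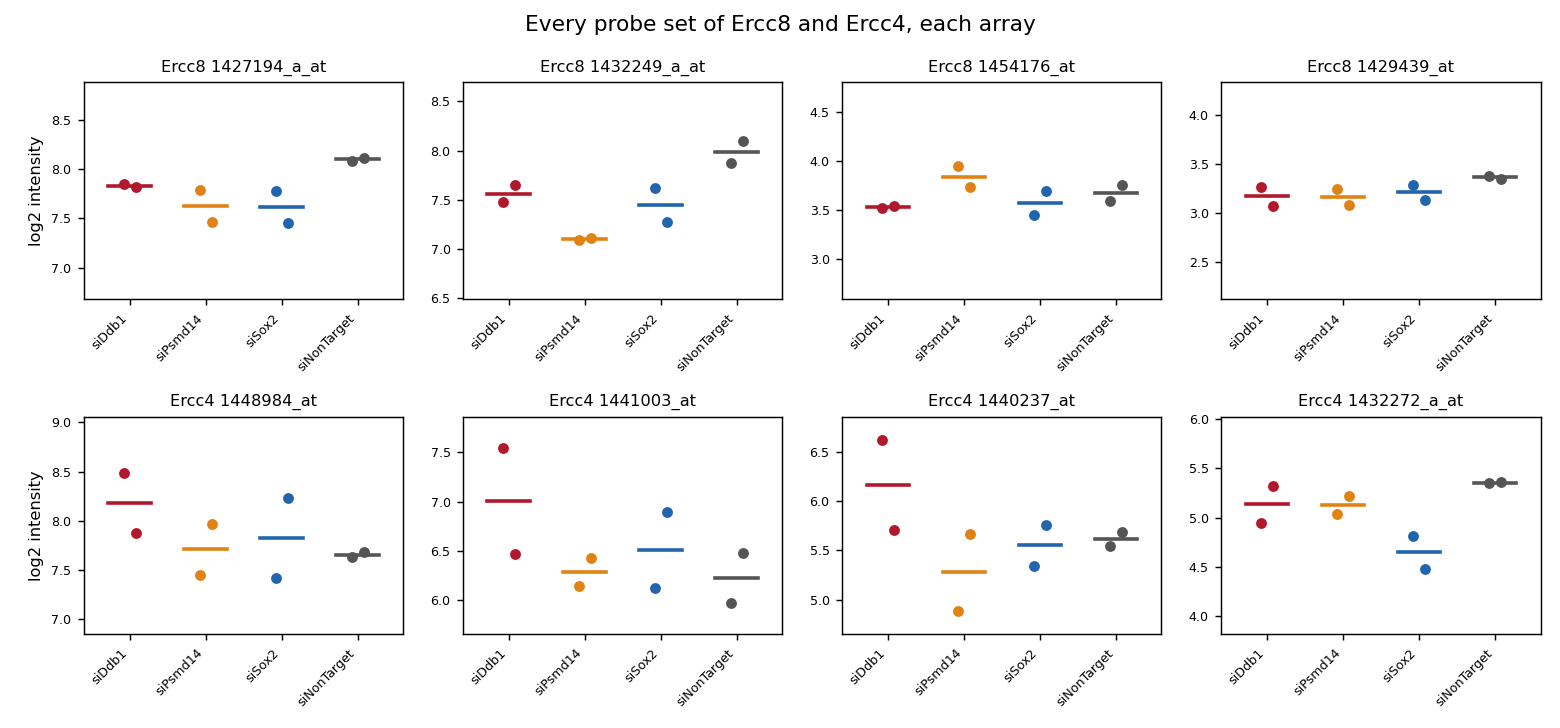
Log2 intensity (y axis) of every probe set of Ercc8 (top) and Ercc4 (bottom) on each array; points are arrays and bars group means of 2 arrays in siDdb1, siPsmd14, siSox2 and siNonTarget. Both brighter Ercc8 probe sets have siNonTarget on top. By group mean, the brighter Ercc4 probe sets have siDdb1 on top and the dimmest has siNonTarget on top.

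Ercc6, which encodes CSB, has 1 probe set, and it lay below the median of every array. It read 3.64 and 3.86 in siDdb1, 3.58 and 3.82 in siPsmd14, and 3.96 and 3.93 in siSox2, against 4.07 and 4.20 in siNonTarget. All knockdown arrays were below both control arrays, with differences of -0.38, -0.44 and -0.19 that did not pass (adjusted p = 0.508, 0.186 and 0.615). With 32 added to every intensity before the log, the Ercc6 differences in siDdb1 and siPsmd14 were -0.12 and -0.14, so their size rests on the low end of the scale.

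Promoter windows from the RefSeq table (build GRCm38.p6) were read for 7 of the 10 genes, each from 250 bases before to 50 after the annotated start. The search of the members left out a whole chromosome, which the counts over all windows given below kept. The windows of Ercc8 and Xpa are shown because Ercc8 holds the probe set called in siPsmd14 and Xpa was lowest on both siDdb1 arrays, and that of Ercc2 for comparison, because it differed little. Capitals mark every match on either strand to CCAAT (the NF-Y box), GGGCGG (the GC box) or CGCATGCG (the core of the NRF1 site, which reads the same on both strands). The windows lie at chr13:108158488-108158787 on the plus strand for Ercc8, chr4:46196262-46196561 on the minus strand for Xpa and chr7:19381767-19382066 on the plus strand for Ercc2.
Ercc8: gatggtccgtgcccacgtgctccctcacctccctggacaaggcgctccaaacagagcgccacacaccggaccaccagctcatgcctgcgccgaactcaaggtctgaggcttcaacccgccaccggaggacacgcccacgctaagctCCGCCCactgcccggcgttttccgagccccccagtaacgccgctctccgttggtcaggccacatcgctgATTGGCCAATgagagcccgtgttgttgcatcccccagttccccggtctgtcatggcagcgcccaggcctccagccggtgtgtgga
Xpa: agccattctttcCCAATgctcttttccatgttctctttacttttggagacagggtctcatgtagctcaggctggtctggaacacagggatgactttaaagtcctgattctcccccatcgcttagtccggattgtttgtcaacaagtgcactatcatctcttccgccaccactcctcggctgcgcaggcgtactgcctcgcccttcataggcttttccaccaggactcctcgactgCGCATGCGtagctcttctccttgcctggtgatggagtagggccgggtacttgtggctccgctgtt
Ercc2: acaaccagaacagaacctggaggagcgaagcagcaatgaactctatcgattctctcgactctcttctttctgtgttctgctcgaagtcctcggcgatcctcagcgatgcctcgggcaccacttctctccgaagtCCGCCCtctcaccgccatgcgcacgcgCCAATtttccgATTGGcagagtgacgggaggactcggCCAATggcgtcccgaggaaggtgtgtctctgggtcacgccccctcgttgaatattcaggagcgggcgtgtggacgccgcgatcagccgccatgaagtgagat

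Ercc8 held 2 CCAAT matches side by side on opposite strands, beginning 35 and 30 bases before the start, and 1 GC box. Ercc2, whose representative probe set differed from siNonTarget by -0.14 to -0.11, held 3 CCAAT matches and 1 GC box. Xpa held 1 CCAAT match 238 bases before the start and 1 NRF1 core. Of 32851 windows of the same length in the table, 37.4% held CCAAT (11.7% held 2 or more), 35.7% the GC box and 1.87% the NRF1 core. The window of Ercc6, not shown, also held an NRF1 core. These matches describe the letters in the windows, and no match overlapped another.

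Counts by array overlap were set against the whole table. In siDdb1, 11 of 24 member probe sets lay below siNonTarget with no overlap (21.2% of all probe sets did) and 3 above (17.6%). In siPsmd14 the numbers were 12 below (23.7%) and 3 above (19.8%), and in siSox2 8 below (27.6%) and 1 above (20%). By representative probe sets, 6, 6 and 4 of the 10 genes lay below in siDdb1, siPsmd14 and siSox2, against 22.3%, 24.1% and 29.3% of all genes. Values below 0 were found for 7, 7 and 6 of the 10 genes, against 53.2%, 52.6% and 55.2% of all genes. The median log2 fold change of the 10 genes was -0.16, -0.18 and -0.08 in these knockdowns, against -0.01, -0.01 and -0.03 over all genes. The 3 comparisons share the control arrays, so a low or high control reading enters each of them.

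The rest of the pathway was read through 39 measured genes of a list of 41: partners of XPC and of the ligase, other TFIIH subunits, transcription-coupled factors, the RPA subunits, and the polymerases, clamp, clamp loader and ligases that fill the gap. By their representative probe sets, 0 of 39 rose and 0 fell against siNonTarget in siDdb1, siPsmd14 or siSox2 by limma, against 0.044%, 1.89% and 4.28% of all genes called in either direction. At an unadjusted p of 0.05, 2 were higher and 1 lower in siDdb1, 3 and 3 in siPsmd14, and 4 and 3 in siSox2. Of all genes, 5.85% were higher and 4.01% lower at that p in siDdb1, 9.05% and 8.07% in siPsmd14, and 10.2% and 8.93% in siSox2. The medians were -0.03, -0.12 and -0.11.

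Polk, the gene of DNA polymerase kappa, which fills some repair gaps, had the smallest p in each knockdown. It read 8.89 and 8.56 in siDdb1, 8.55 and 8.59 in siPsmd14, and 8.65 and 8.51 in siSox2, against 8.09 and 7.97 in siNonTarget. All 6 knockdown arrays lay above both control arrays, with differences of 0.70, 0.54 and 0.55 (adjusted p = 0.229, 0.125 and 0.0915). A second Polk probe set gave 0.67, 0.64 and 0.62, and by it Polk rose in siSox2 (adjusted p = 0.0385).

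Next after Polk came Cul4b, a scaffold of the DDB1 ligase, in siDdb1 (0.33, adjusted p = 0.566), the TFIIH subunit gene Gtf2h3 in siPsmd14 (-0.44, adjusted p = 0.150), and Cul4a, the other CUL4 scaffold, in siSox2 (0.51, adjusted p = 0.113). None of these passed. The highest log2 fold change of the 39 genes in siSox2, 1.02, was of a transcription-coupled gene with a larger p. It did not pass either. Split into 5 roles, the medians ran from -0.13 (damage recognition) to -0.02 (gap filling) in siDdb1, from -0.20 (gap filling) to 0.12 (damage recognition) in siPsmd14, and from -0.16 (single-strand binding) to -0.06 (damage recognition) in siSox2.

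**Figure D4:**
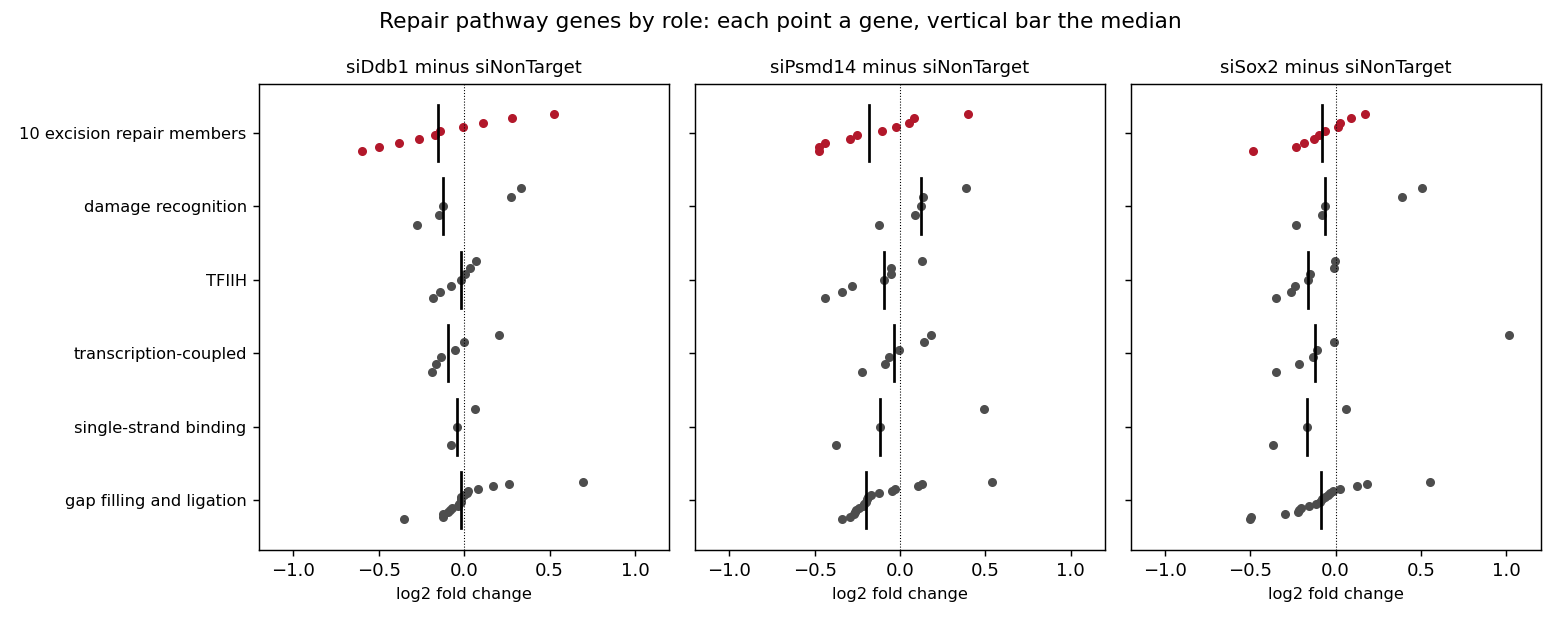
Log2 fold change against siNonTarget (x axis) in siDdb1, siPsmd14 and siSox2 for the 10 excision repair genes (red) and 39 other genes of the pathway grouped by role (grey, rows); each point is a gene by its representative probe set and bars are medians. The 10 genes spread from -0.60 to 0.52 in siDdb1, and the isolated high points of the bottom row are Polk.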

How the data were processed

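Total RNA (5 ng) from NG4 cells was amplified (Ovation V2) and hybridised as biotin-labelled cDNA, per the labels' protocols. The deposited intensity values came from RMA per the submitters' processing notes; no version or settings are stated in the labels. RMA usually equalises the arrays' distributions, which hides changes in total RNA per cell. Being linear, they were turned into log2 here. The number of arrays limits the precision.

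Control probe sets (64 of 45101) were left out. Symbols came from GEO's platform annotation; 34945 probe sets had 1 symbol, 932 several and 9160 none, and Entrez look-up renamed 0. One fit in limma (version 3.58.1, R 4.3.3; lmFit, then eBayes without trend) took all 8 arrays, with Benjamini-Hochberg adjustment over 45037 probe sets and a threshold of 0.05. Every adjusted p printed comes from limma. No filter on low values was applied, so all 24 member probe sets were tested. Scripts were tested on simulated data.

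Members and lists were chosen with earlier results of these data known. The naming rule took all 10 members with every probe set, the siRNA targets, other pathway genes past the threshold or else the 2 with the smallest p per knockdown, the 3 genes most correlated with Ddb2 and with Xpc, and 8 p53-pathway genes. Listed genes with no probe set of a single symbol were not analysed here. Alternatives were filters on dim probe sets, array scaling, a log offset, variance models, array weights, fewer arrays, leaving out each array, the replicate block, representative probe sets alone and a threshold of 0.1.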

Additional observations from a re-analysis of the deposited data

How the results depend on the processing

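The Ercc8 and Xpc calls kept their direction under every alternative run, but not their side of the threshold. With log2(value + 32) the members called numbered 0 in siPsmd14, 0 between siDdb1 and siSox2 and 0 by the F test, with Ercc8 at -0.75 (limma adjusted p = 0.087), Xpc at -0.50 (0.0588) and an F adjusted p of 0.0731. With eBayes trend and robust, 0 were called between siDdb1 and siSox2 and 0 by the F test (Xpc -0.63, adjusted p = 0.0747, F 0.0816). With only the arrays of the groups compared, 0 were called between siDdb1 and siSox2 (Xpc -0.63, adjusted p = 0.0761). With array weights 1 was called in siSox2, a probe set of Ercc4. With 1 probe set per gene 0 were called in siPsmd14, since the called Ercc8 probe set is not the representative. With every probe set of a gene counted, 1 other pathway gene, Polk, was called in siSox2. At an adjusted p of 0.1 the counts were 1 in siSox2, 1 between siPsmd14 and siSox2, 2 by the F test and 1 other pathway gene in siSox2. Leaving out 1 array at a time, the counts of calls changed with some arrays in siPsmd14, between siDdb1 and siSox2 and by the F test. Where the F test then called a member, it was the Ercc8 probe set and not Xpc. Ercc8 in siPsmd14 ranged from -0.99 to -0.77, Xpc between siDdb1 and siSox2 from -0.69 to -0.56, and its F adjusted p from 0.0554 to 0.161. Fewer arrays also leave fewer degrees of freedom.

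The replicate numbers share only a number in the labels. Same-numbered deviations correlated with those of siNonTarget at -0.213 in siDdb1, 0.056 in siPsmd14 and 0.242 in siSox2. With the replicate block 0 members were called in siPsmd14, 0 between siDdb1 and siSox2 and 0 by the F test (Ercc8 -0.88, adjusted p = 0.0504; Xpc -0.63, 0.0566; F 0.0672). With the siDdb1 numbers crossed, an alternative chosen after the data were seen, 0 were called between siDdb1 and siSox2 and 0 by the F test. For the representative probe sets against siNonTarget, none of which passed at first, 564 values were compared over these alternatives. Of these, 549 moved by less than the spread between replicates and 15 by more, and none came to pass. Filters on dim probe sets, variance models, array weights, the replicate block and the looser threshold leave a log2 fold change unchanged. Leaving out an array changes only the comparisons that use its group. Many of the 549 values therefore could not move. Apart from the counts of calls named above, no other changed by more than 1.5 times.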

Other observations

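Genes of other DNA repair pathways were read in the same model. Of 12 measured Fanconi anemia genes, which resolve crosslinks between DNA strands, 1 fell in siSox2, where 1.46% of all genes fell. It was Fancl, the pathway's ubiquitin ligase gene (log2 fold change -0.76, SE 0.16, limma adjusted p = 0.0394). The list's median in siSox2 was -0.23. By representative probe sets, 0 of 17 base excision, 0 of 6 mismatch, 0 of 15 homologous recombination, 0 of 8 end joining and 0 of 7 translesion synthesis genes passed in siDdb1, siPsmd14 or siSox2. The translesion synthesis list holds Polk, which was also read above among the other excision repair genes. There, its second probe set passed in siSox2. In siPsmd14, 13 of 15 homologous recombination genes lay below 0 (52.6% of all genes did) with a median of -0.28. Of these, 7 were lower at an unadjusted limma p of 0.05 (8.07% of all genes were). The other lists also lay mostly below 0 in siPsmd14. The counts were 12 of 17 base excision, 9 of 12 Fanconi anemia, 7 of 8 end joining, 5 of 6 mismatch and 5 of 7 translesion synthesis genes. At the same unadjusted p, 5 base excision, 2 Fanconi anemia and 1 end joining gene were lower. Below 0 in siSox2 (55.2% of all genes) lay 14 of 15 homologous recombination, 14 of 17 base excision and 10 of 12 Fanconi anemia genes. So did 8 of 8 end joining, 6 of 6 mismatch and 4 of 7 translesion synthesis genes. In siDdb1 (53.2% of all genes) the counts, with the lists in the same order, were 10, 9, 7, 5, 6 and 4. At that p, 2 homologous recombination genes were lower in siSox2 and 0 in siDdb1. In siDdb1 and siSox2 the homologous recombination list had medians of -0.14 and -0.20. Probe sets that are not the representative of their gene passed for Apex2 (-0.72, adjusted p = 0.0494) and Fancd2 (-0.71, adjusted p = 0.0484) in siPsmd14. There 1.35% of all probe sets passed. The Fancd2 probe set read 3.74 to 4.49 over the arrays, below the median of every array and so at the low end of the scale.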
